A study of Mus musculus with 12 samples.

Results

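The promoters of Dlx2 and Sp5 lie 1072 kb apart on mouse chromosome 2, and both were baits in a CaptureC experiment in embryonic stem cells (ESCs). CaptureC crosslinks and ligates chromatin and then counts the ligation events between a bait, which is 1 chosen restriction fragment, and all other fragments. The contacts examined here were all table entries whose bait was the Dlx2 or the Sp5 fragment. These were 50 of 842 contacts in the table, 34 of Dlx2 and 16 of Sp5, and 414 contacts belonged to the 24 baits that are named after a gene. Of the 50, 18 reached a site with RING1B and PCGF2 binding, called a PCGF2 site below, with 15 from Dlx2 and 3 from Sp5. The other 32 reached other sites, with 19 from Dlx2 and 13 from Sp5.

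Polycomb repressive complex 1 (PRC1) ubiquitylates histone H2A through its catalytic subunits RING1A and RING1B and keeps developmental genes silent in ESCs. Its canonical form, which contains PCGF2, can bring distant Polycomb-bound promoters together. DLX2 is a homeodomain transcription factor of the ventral forebrain, where it acts with its neighbour DLX1 in inhibitory interneurons. SP5 is a zinc finger transcription factor that responds to WNT signalling in the early embryo.

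All 4 groups were E14 mouse ESCs, with 3 replicates in each and 12 samples in all. In PRC1CPM cells, represented by clone 41, Ring1a carried the I50A and D53K substitutions, and a floxed Ring1b gene could be switched from wild type to an I53A and D56K form by ERT2-Cre expressed from Rosa26. These cells were untreated (0 h) or were treated for 72 h with 4-hydroxytamoxifen (OHT) at 800 nM. PRC1DEG cells carried Tir1, the plant auxin receptor, with Ring1a-/- and a Ring1b gene fused to an auxin-inducible degron, and received 0.5 mM auxin for 6 h. The Control line carried Tir1 alone and received the same auxin treatment, so these lines differed by their Ring1a genotype as well as by the degron. Below, before and after OHT always mean untreated and treated PRC1CPM cells. The auxin experiment was a separate experiment, and levels were compared only within each of the 2 systems. The ESC identity of the lines could not be checked, since CaptureC measures no expression.

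The table gives 1 pooled value per group. No spread between replicates and no p-value can therefore be given, and each change below compares 2 pooled libraries. Values were whole multiples of 1 weighted read, which for these baits was worth 0.00112 normalized units before and 0.00122 after OHT, and 0.00159 in Control against 0.00149 in PRC1DEG. Changes are log2 ratios of normalized reads per fragment after a pseudocount of 0.00035, and a contact was called lower at a log2 change of -1 or below, a fold of 2. Intervals are at 95%, by the Wilson method on the perturbed library's share of the reads of both groups, and they cover counting error only, since the replicates were pooled. No molecular identifiers are described for these reads. The intervals carry no pseudocount, whereas the log2 changes do. For contacts of many fragments, a log2 change therefore lies nearer to 0 than the ratio to which its interval belongs. A contact entered the table when at least 1 of its fragments reached a CHiCAGO score of 5 in any group, so the group that placed it there tends to have high reads. The score weighs the reads on a fragment against those expected at its distance.

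The bait fragments differed in sequence. Coordinates are in GRCm38, counted from 1. The Sp5 bait was the 283 bp DpnII fragment at chr2:70474823-70475105 and the Dlx2 bait the 387 bp fragment at chr2:71546566-71546952. Each contained the transcription start site (TSS) of its gene and part of the 5′ untranslated region. The Dlx2 bait held 40 CpG dinucleotides, 103 per kb, and the Sp5 bait held 5, or 17.7 per kb. The Hoxd10 bait, 3145 kb to the right of Dlx2, held 57.9 per kb. The 250 bases before the start of each gene, taken from RefSeq promoters in the GRCm38.p6 build, are shown because they carry the baits' upstream probes, with CpG in capitals and each on the strand of its gene. The Sp5 stretch lies at chr2:70474673-70474922 on the plus strand and the Dlx2 stretch at chr2:71546755-71547004 on the minus strand.
Sp5 promoter: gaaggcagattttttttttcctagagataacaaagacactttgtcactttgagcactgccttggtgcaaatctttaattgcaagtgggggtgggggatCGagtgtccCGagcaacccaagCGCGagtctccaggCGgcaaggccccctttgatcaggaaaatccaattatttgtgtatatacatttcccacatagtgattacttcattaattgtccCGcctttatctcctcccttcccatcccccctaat
Dlx2 promoter: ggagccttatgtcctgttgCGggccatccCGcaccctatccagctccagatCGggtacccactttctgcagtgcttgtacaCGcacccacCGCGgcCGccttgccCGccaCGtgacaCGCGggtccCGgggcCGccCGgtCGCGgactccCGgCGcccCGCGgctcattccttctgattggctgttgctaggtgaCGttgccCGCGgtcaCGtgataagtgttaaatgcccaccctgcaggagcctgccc

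The Dlx2 stretch held 24 CpG and the Sp5 stretch 6. Of 32851 RefSeq promoters of this length, 12.0% held at least 24 CpG (the letters CG, which read the same on both strands) and 50.4% held at least 6. The body of the Sp5 gene downstream of its bait was not examined for CpG. Upstream of the Sp5 bait, a fragment that the Dlx2 bait contacted held more CpG per kb than the Sp5 bait. This fragment, chr2:70473999-70474767, ends 156 bp before the Sp5 TSS and had 53.3 CpG per kb. Its last 300 bases, chr2:70474468-70474767 on the plus strand, are shown because they are the Sp5 side of the contact between both loci, and they overlap the start of the Sp5 stretch above.
Sp5 upstream fragment: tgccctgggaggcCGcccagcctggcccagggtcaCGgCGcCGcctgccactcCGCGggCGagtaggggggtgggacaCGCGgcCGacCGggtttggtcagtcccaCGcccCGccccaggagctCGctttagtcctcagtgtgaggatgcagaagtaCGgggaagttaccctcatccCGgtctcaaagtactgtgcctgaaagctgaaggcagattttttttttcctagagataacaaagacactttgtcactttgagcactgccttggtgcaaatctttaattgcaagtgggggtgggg
These 300 bases held 16 CpG.

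The 18 contacts at PCGF2 sites lay at few loci of chromosome 2. From the Sp5 bait they reached Lrp2, Gad1 and the Dlx1 and Dlx2 genes. From the Dlx2 bait they reached Lrp2, Sp5, Gad1, Dlx1, Sp9 and the HoxD cluster from Evx2 to Hoxd1. Of 40 genes listed as developmental regulators on this chromosome, 14 had a TSS within 10 kb of a Dlx2 contact and 3 within 10 kb of an Sp5 contact, all at PCGF2 sites. Both counts include Gad1, which is on the list although it encodes an enzyme. Of the 14, 10 were Evx2 and clustered Hoxd genes. Of all 1836 protein-coding genes of chromosome 2, 15 or 0.82% had a TSS within 10 kb of a Dlx2 contact at a PCGF2 site and 4 or 0.22% of an Sp5 contact at one, and in both cases Lrp2 was the only one not on the list. The list was chosen with earlier results of these data known, so its overlap with the genes reached is a description and was not tested. The regulators not reached included Pax6, Gata3, Lhx2, Tbr1 and Nkx2-2. A TSS lay inside 7 of the 15 Dlx2 contacts and inside all 3 of Sp5. The median CpG density was 29.7 per kb at the PCGF2 sites of Dlx2 and 12.7 at its other sites, and 37.7 and 10.96 per kb for Sp5. For the other named baits it was 27.8 and 12.2 per kb.

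All 18 contacts had a lower normalized count in both perturbations. After OHT, the median log2 change of the 15 Dlx2 contacts was -1.0 (range -1.62 to -0.26), and in PRC1DEG relative to Control it was -1.95 (range -4.26 to -0.94). For the 3 Sp5 contacts the medians were -1.22 and -2.02. Summed over the contacts, Dlx2 kept 48.4% of its untreated signal after OHT (456 and 202 weighted reads) and 29.5% of the Control signal in PRC1DEG (450 and 142 reads). Sp5 kept 39.7% (983 and 357 reads) and 22.8% (932 and 227 reads). Single near contacts weigh heavily in these sums. Of the Dlx2 reads, Dlx1 held 166 and 93 in PRC1CPM cells and 184 and 94 in the auxin system. Dlx1 kept 61.2% and 47.7%, whereas the 8 HoxD contacts, summed, kept 39.2% and 17.4%. Of the Sp5 reads, Gad1 held 691 and 282, and 717 and 187.

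A fold of 2 was passed after OHT by 8 of the 15 Dlx2 contacts and by 3 of 3 for Sp5, beside 18.4% of all 414 contacts of named baits and 46.9% of their 130 contacts at PCGF2 sites. One of the 8, next to Hoxd10, sat at the threshold with -1.0, and the nearest above it was Hoxd9 with -0.87. In PRC1DEG, 14 of 15 and 3 of 3 passed, beside 26.8% and 76.9%. Most Dlx2 contacts held few reads, and only 4 of 15 had a Wilson interval wholly below 0 after OHT and 10 of 15 in PRC1DEG, whereas all 3 of Sp5 did in both. Of all contacts of named baits, 22.9% had such an interval after OHT and 26.1% in PRC1DEG, and of those at PCGF2 sites 56.9% and 69.2%. In PRC1DEG, 11 of the 15 Dlx2 contacts held no more than 3 reads.

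Because entry into the table favoured the group with a high score, contacts were also examined in the system that had not placed them there. These were contacts whose score, summed over their fragments, stayed below 5 in both groups of a system, so that no fragment reached 5 in it. For OHT they were 6 Dlx2 contacts at PCGF2 sites, namely Dlx1, Evx2, Hoxd1 and 1 of the fragments each at Lrp2, Sp5 and Hoxd3. All 6 were lower, with a median of -0.75 and 194 reads before against 108 after OHT, of which Dlx1 held 166 and 93. For the auxin system they were 4 Dlx2 contacts, the other fragments at Lrp2 and Sp5 and those by Hoxd10 and Hoxd4. All 4 were lower, with a median of -1.37, but they held only 15 reads in Control and 5 in PRC1DEG. No Sp5 contact at a PCGF2 site met this condition in either system.

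**Figure D1:**
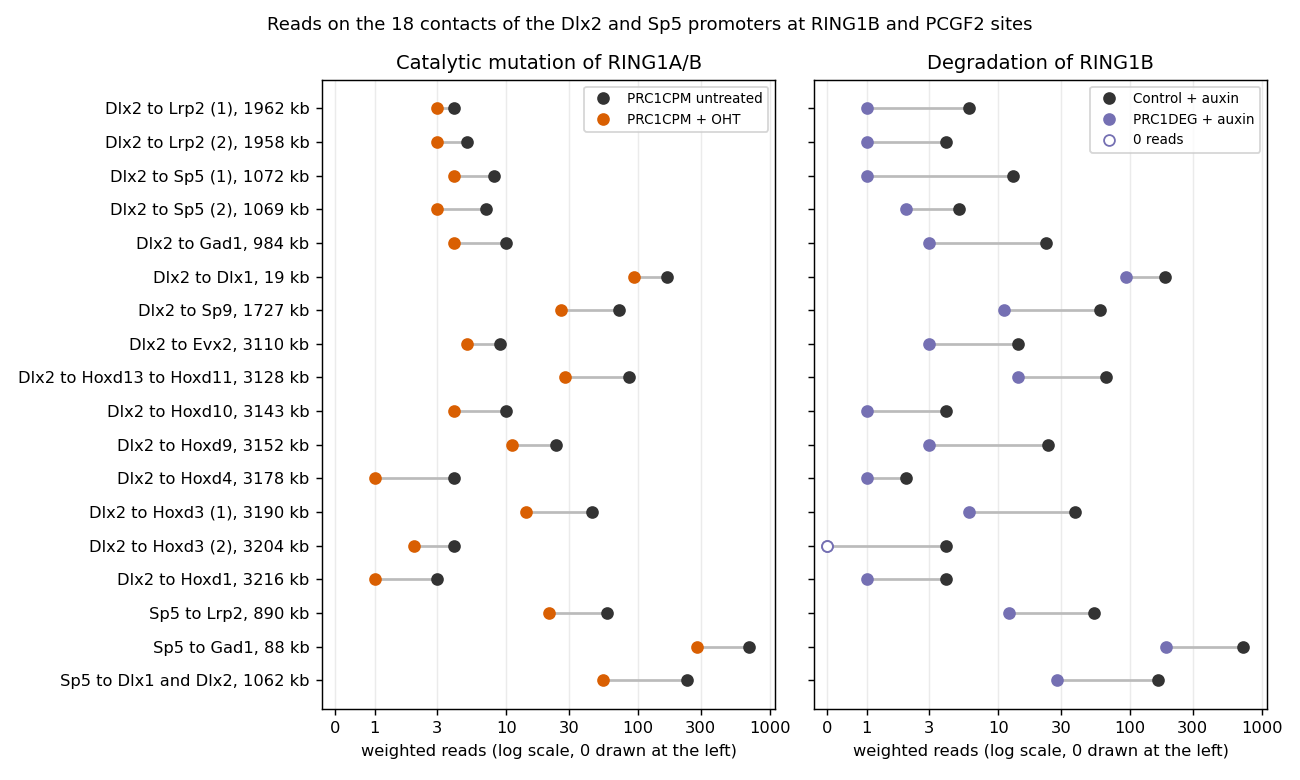
Weighted reads (x axis, log scale, with 0 drawn at the left) on each of the 18 contacts of the Dlx2 and Sp5 promoters at PCGF2 sites, with the bait, the gene reached and the distance on the y axis. Dark points are the reference group and coloured points the perturbed group, each 1 pooled library, where (1) and (2) number contacts of 1 bait with the same gene. In both panels every coloured point lies to the left of its dark point.

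The pair of loci was measured from both ends. From the Sp5 bait, the contact with the Dlx locus spanned 46 fragments at chr2:71527527-71546341, from the Dlx1 promoter through the body of Dlx2 almost to the Dlx2 bait. It held 234 weighted reads before and 54 after OHT, and 162 in Control against 28 in PRC1DEG. Both perturbed groups were therefore well below their reference. Normalized reads after OHT were 25.2% of untreated (interval 18.8 to 33.9%), and in PRC1DEG 16.1% of Control (10.8 to 24.1%). Per fragment, with the pseudocount, the log2 changes were -1.76 and -2.25.

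From the Dlx2 bait, only 2 single fragments beside Sp5 were in the table, and they held few reads. The fragment just upstream of the Sp5 TSS, shown above, held 8 reads before and 4 after OHT, and 13 in Control against 1 in PRC1DEG. The fragment at chr2:70477793-70478553, 2.87 kb from the nearest Sp5 TSS and intergenic, held 7, 3, 5 and 2. Together they kept 51.0% after OHT (interval 21.4 to 121.7%), so that a decrease was not detectable at this depth. In PRC1DEG they kept 15.6% (4.90 to 49.5%). Both ends of the pair gave a lower count, and the intervals from the Dlx2 end contained the values from the Sp5 end. The Hoxd10 bait contacted the same 46 fragments at Dlx1 and Dlx2 from 3155 kb away, with 168 reads before and 49 after OHT, and 159 in Control against 19 in PRC1DEG. Its share kept was 31.9% (23.2 to 43.8%) and 11.2% (6.97 to 17.9%), and both intervals overlapped those from Sp5.

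**Figure D2:**
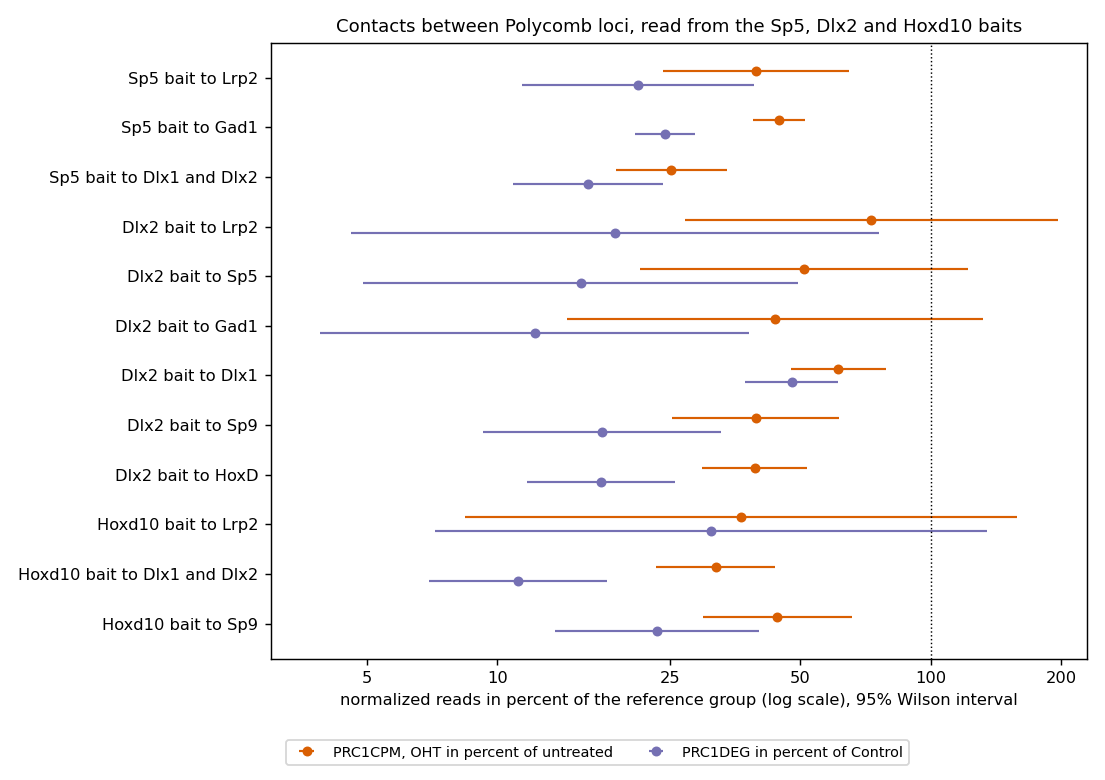
Normalized reads in the perturbed group in percent of the reference group (x axis, log scale) for pairs of Polycomb loci, summed over the contacts of the bait at the locus, with 95% Wilson intervals as bars. Orange is OHT against untreated and purple PRC1DEG against Control. All points lie left of the dotted line at 100%, and it is crossed by the OHT intervals of the Dlx2 bait to Lrp2, Sp5 and Gad1 and by both intervals of the Hoxd10 bait to Lrp2.

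Gad1, which encodes a glutamate decarboxylase that makes the transmitter GABA, lies between both baits and was contacted by each. From Sp5 it was the contact with the most reads at a PCGF2 site, 22 fragments at chr2:70557620-70568031 and 87.9 kb from the bait. It held 691 reads before and 282 after OHT, and 717 in Control against 187 in PRC1DEG. The share kept was 44.6% after OHT (38.8 to 51.2%) and 24.4% in PRC1DEG (20.7 to 28.6%). The OHT interval lay above that of the Sp5 contact with Dlx1 and Dlx2, whereas the PRC1DEG intervals overlapped. From Dlx2, at 984 kb, 2 fragments over the Gad1 promoter held 10, 4, 23 and 3 reads in the same order, with shares of 43.7% (14.5 to 131.7%) and 12.2% (3.90 to 38.1%). The low count from Dlx2 leaves the change after OHT undetectable by itself.

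Lrp2, which encodes the endocytic receptor megalin, was the leftmost gene that either bait reached. The Sp5 contact spanned 11 fragments around the Lrp2 promoter at chr2:69582504-69588008, 890 kb away. It held 58 reads before and 21 after OHT, and 53 in Control against 12 in PRC1DEG, with log2 changes of -1.22 (interval -2.05 to -0.62) and -2.02 (-3.13 to -1.35). The Dlx2 contacts were an intronic fragment at chr2:69584664-69585342 with 4, 3, 6 and 1 reads and an intergenic one at chr2:69588122-69589126 with 5, 3, 4 and 1. Both were about 1960 kb from Dlx2. Their summed share after OHT, 72.9%, had an interval of 27.0 to 196.5% and in PRC1DEG, 18.7%, of 4.60 to 75.8%. The Hoxd10 bait also reached Lrp2, at 5104 and 5109 kb, with 6 reads before and 2 after OHT, and 6 in Control against 2 in PRC1DEG.

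Dlx1, the homeobox gene paired with Dlx2, gave the nearest contact of the Dlx2 bait and, among its contacts at PCGF2 sites with more than 10 reads in the reference, the 1 that kept the most signal. It was a single fragment at chr2:71527527-71528147, 18.9 kb away, which covers the Dlx1 TSS. It held 166 reads before and 93 after OHT, and 184 in Control against 94 in PRC1DEG. The share kept was 61.2% (47.5 to 78.9%) after OHT and 47.7% (37.3 to 61.2%) in PRC1DEG. Both decreases exceeded counting error. In PRC1DEG this interval lay wholly above those of the Dlx2 contacts with Sp9 and with the HoxD cluster, whereas after OHT the intervals overlapped.

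Sp9, a zinc finger gene of the same family as Sp5, was contacted by Dlx2 across 15 fragments at chr2:73269303-73279031, 1727 kb to the right. It held 72 reads before and 26 after OHT, and 59 in Control against 11 in PRC1DEG. The share kept was 39.5% (25.3 to 61.6%) after OHT and 17.4% (9.25 to 32.8%) in PRC1DEG. From the Hoxd10 side, 16 fragments over Sp9 kept 44.2% (29.8 to 65.7%) and 23.4% (13.6 to 40.1%). No Sp5 contact with Sp9 or with the HoxD cluster was in the table.

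The HoxD cluster, an array of homeobox genes that pattern the body axis and limbs, took 8 of the 15 Dlx2 contacts at PCGF2 sites, from 3110 to 3216 kb away. Summed, they held 184 reads before and 66 after OHT, and 156 in Control against 29 in PRC1DEG. The share kept was 39.2% (29.6 to 51.9%) after OHT and 17.4% (11.7 to 25.7%) in PRC1DEG. The contact over the posterior genes Hoxd13 to Hoxd11 held more of these reads than any other. Its 34 fragments (chr2:74665459-74683951) held 85 reads before and 28 after OHT, and 66 in Control against 14 in PRC1DEG, with log2 changes of -1.21 (-2.09 to -0.86) and -1.84 (-3.16 to -1.51). Without the pseudocount the log2 ratios, to which these intervals belong, were -1.474 and -2.335. The 250 bases before the Hoxd13 start, at chr2:74667975-74668224 on the plus strand, lie inside this contact and are shown as its far end.
Hoxd13 promoter: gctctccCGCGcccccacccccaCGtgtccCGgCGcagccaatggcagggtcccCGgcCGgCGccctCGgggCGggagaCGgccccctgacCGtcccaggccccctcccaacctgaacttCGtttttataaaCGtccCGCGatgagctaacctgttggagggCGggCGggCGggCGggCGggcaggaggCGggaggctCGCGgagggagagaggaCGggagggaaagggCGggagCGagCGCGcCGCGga
This stretch held 31 CpG, and 5.19% of RefSeq promoters held as many or more.

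At the anterior end, 21 fragments over the Hoxd3 promoter (chr2:74731982-74742093) held 45 reads before and 14 after OHT, and 38 in Control against 6 in PRC1DEG. Their log2 changes were -1.24 (-2.41 to -0.70) and -2.06 (-3.97 to -1.55), or -1.556 and -2.761 without the pseudocount. Hoxd9, which lies between these contacts, held 24, 11, 24 and 3 reads in 8 fragments. Its interval reached 0 after OHT (-2.01 to 0.01) but not in PRC1DEG (-4.74 to -1.46). Evx2, the homeobox gene at the posterior border, held 9, 5, 14 and 3 reads in 5 fragments, with an interval below 0 in PRC1DEG alone (-4.02 to -0.62).

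The remaining HoxD contacts lay near the limit of detection. The 4 fragments between Hoxd11 and the Hoxd10 bait held 10, 4, 4 and 1 reads, the fragment by Hoxd4 held 4, 1, 2 and 1, and the fragment over the Hoxd1 promoter held 3, 1, 4 and 1. The intergenic fragment at chr2:74750589-74751218, 10.97 kb from the nearest Hoxd3 TSS, held 4, 2, 4 and 0 reads. A count of 0 allows up to 3 reads, so this last contact was at least 1.43-fold lower in PRC1DEG if its 4 Control reads are taken as exact. The upper end of its interval was -0.16, and its log2 change of -4.26 depends on the pseudocount. With it set to that bound, the median of the 15 Dlx2 contacts in PRC1DEG was -1.87. None of these 4 could be told from no change after OHT at their depth.

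At other sites, the contacts of Dlx2 changed little. All 19 lay within 500 kb of the bait, over or beside genes such as Hat1, Metap1d, Dync1i2, Itga6 and Pdk1, whereas of its contacts at PCGF2 sites Dlx1 alone lay that close. Their median log2 change was -0.26 after OHT (15 of 19 lower) and 0.18 in PRC1DEG (4 of 19 lower). After OHT 1 passed a fold of 2, an intergenic fragment near Dync1i2 with 19, 8, 9 and 15 reads, and its interval reached above 0. None of the 19 passed it in PRC1DEG. Of the 284 contacts of all named baits at other sites, 15 passed it after OHT and 11 in PRC1DEG. Summed normalized reads of the 19 were 88.4% of untreated (2338 and 1891 reads) and 111.5% of Control (1909 and 2278 reads). The 13 of them whose summed score stayed below 5 in both auxin groups had a median of 0.18 in PRC1DEG, and the 1 in both PRC1CPM groups changed by 0.021 after OHT.

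The contact with the most reads in this class was a 42-fragment region over the end of Hat1, a histone acetyltransferase, and the start of Metap1d, a mitochondrial aminopeptidase (chr2:71437831-71460929, 97.4 kb from Dlx2). It held 1220 reads before and 995 after OHT, and 1053 in Control against 1314 in PRC1DEG. Its log2 change was -0.16 (-0.29 to -0.05) after OHT and 0.22 (0.10 to 0.34) in PRC1DEG. These changes were small and of opposite direction. The next were a 34-fragment intergenic region 390 kb to the left, nearest to Cybrd1, with 351, 266, 247 and 297 reads, and a 25-fragment region in the integrin gene Itga6, with 302, 262, 281 and 274. The Itga6 region had intervals that contained 0 in both systems, and the Cybrd1 region was lower after OHT by a log2 of 0.26 (-0.50 to -0.04), with an interval containing 0 in PRC1DEG.

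Sp5 differed from Dlx2 here. All 13 of its contacts at other sites lay to the left, 159 to 433 kb away, and over Myo3b, a gene of an unconventional myosin. Their median log2 change was -0.39 after OHT (11 of 13 lower) and -0.50 in PRC1DEG (12 of 13 lower). Of the 13, 1 and 3 passed a fold of 2, beside 15 and 11 of the 284 contacts of all named baits at other sites. Summed normalized reads of the 13 were 75.8% of untreated (904 and 627 reads) and 62.7% of Control (648 and 435 reads). On the log2 scale the sum in PRC1DEG had an interval of -0.85 to -0.50 for Sp5 and of 0.07 to 0.24 for Dlx2, which did not overlap. Total captured reads per bait were not analysed here, so lower contact at these sites and lower recovery of the whole Sp5 bait in PRC1DEG cannot be told apart. The 8 Sp5 contacts at other sites whose summed score stayed below 5 in both auxin groups had a median of -0.42 in PRC1DEG, and on their 67 and 56 reads the interval of the summed ratio contained 0 (-0.87 to 0.15). The 1 such contact in both PRC1CPM groups held 6 reads before and 6 after OHT.

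The widest of these, 29 fragments in Myo3b at chr2:70114867-70133163, held 282 reads before and 180 after OHT, and 239 in Control against 139 in PRC1DEG. Its log2 changes were -0.50 (-0.79 to -0.25) and -0.85 (-1.18 to -0.58). The next, 14 intronic fragments at chr2:70221107-70228042, held 189, 133, 154 and 91 reads and changed by -0.37 (-0.70 to -0.06) and -0.83 (-1.23 to -0.48). Both were lower beyond counting error in each system. The third, 18 fragments at chr2:70276925-70283519, held 175, 138, 97 and 84 reads, with intervals that contained 0. One contact, an intronic fragment near a Myo3b TSS, was higher by a log2 of 1.03 in PRC1DEG on 4 and 9 reads, with an interval containing 0.

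**Figure D3:**
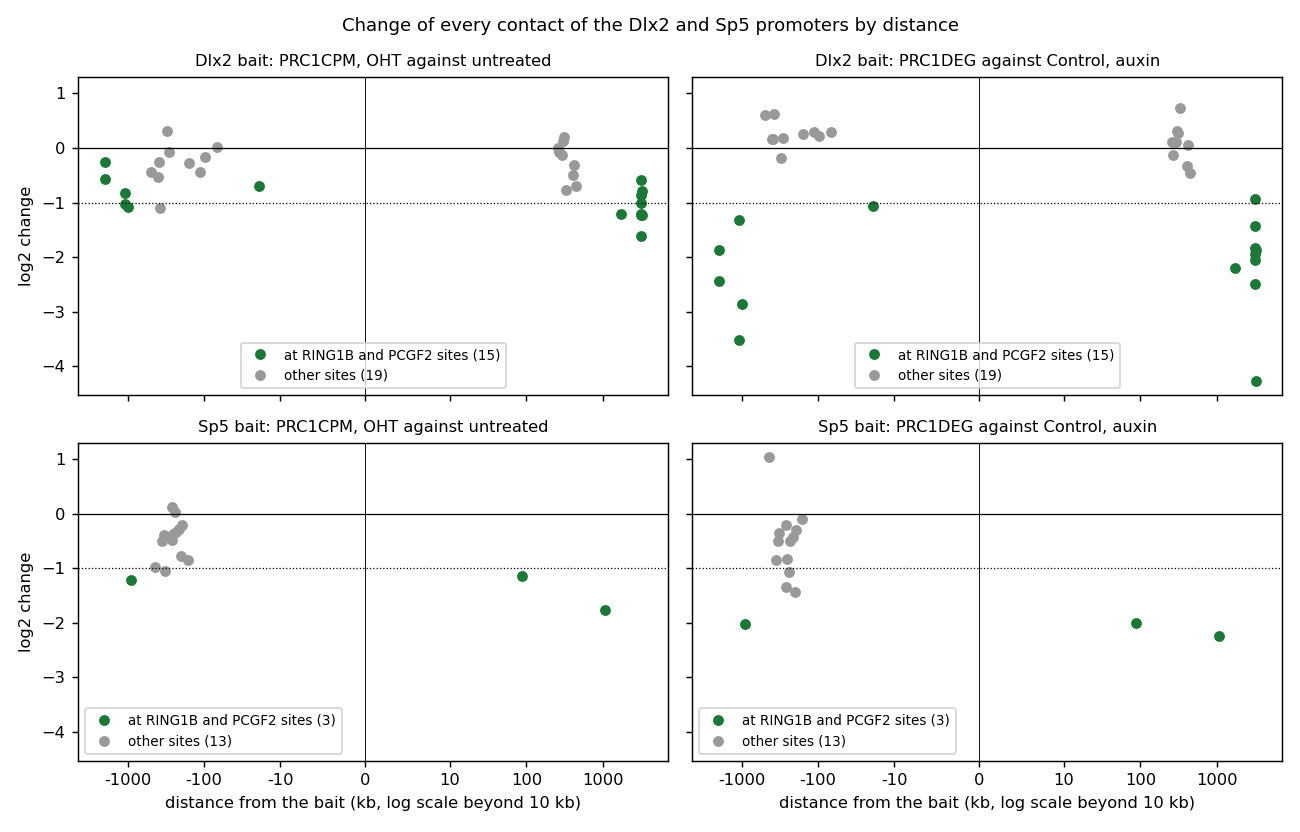
Log2 change of every contact (y axis) against its distance from the bait (x axis, kb, log scale beyond 10 kb, negative to the left) for Dlx2 (top) and Sp5 (bottom), in PRC1CPM cells (left) and in the auxin system (right). Green points are contacts at PCGF2 sites and grey points other sites, and the dotted line marks a fold of 2. All 18 green points lie below 0 in both systems. Of the 19 grey points of Dlx2, 15 lie below 0 after OHT and 4 in PRC1DEG.

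The share of a bait's contact reads that fell on PCGF2 sites does not depend on how a library was scaled for that bait. For Dlx2 it was 16.3% (interval 15.0 to 17.7%) before and 9.65% (8.46 to 10.99%) after OHT, and 19.1% (17.5 to 20.7%) in Control against 5.87% (5.00 to 6.88%) in PRC1DEG. For Sp5 it was 52.1% (49.8 to 54.3%) before and 36.3% (33.3 to 39.3%) after OHT, and 59.0% (56.5 to 61.4%) against 34.3% (30.8 to 38.0%). For both baits it was lower in the perturbed group, with intervals that did not overlap. This share does depend on how contacts entered the table. By summit score, that of 1 fragment per contact, no contact of either bait at a PCGF2 site reached 5 in a perturbed group. Some contacts at other sites did. A lower share can follow in part from this entry, and how much did was not tested. The share was lower after OHT for 14 of the 15 baits with at least 3 contacts in each class, and for all 15 in PRC1DEG.

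Among the 16 named baits with at least 3 contacts at PCGF2 sites, neither bait was extreme. Counted from the largest decrease, Dlx2 ranked 9 of 16 after OHT and 8 of 16 in PRC1DEG, and Sp5 ranked 5 and 6. The baits with the most similar pair of medians to Dlx2 were Hoxd10 (-1.16 and -2.02, a Euclidean distance of 0.17), Sp5 (0.23) and Hoxb3 (0.32). Those most like Sp5 were Hoxd10 (0.06), Dmbx1 (0.15) and Dlx2 (0.23). At other sites Sp5 ranked 3 of 22 in PRC1DEG and 5 of 22 after OHT, and Dlx2 12 and 7. The medians over the other named baits were -0.83 and -1.70 at PCGF2 sites, and -0.15 and 0.09 at other sites.

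**Figure D4:**
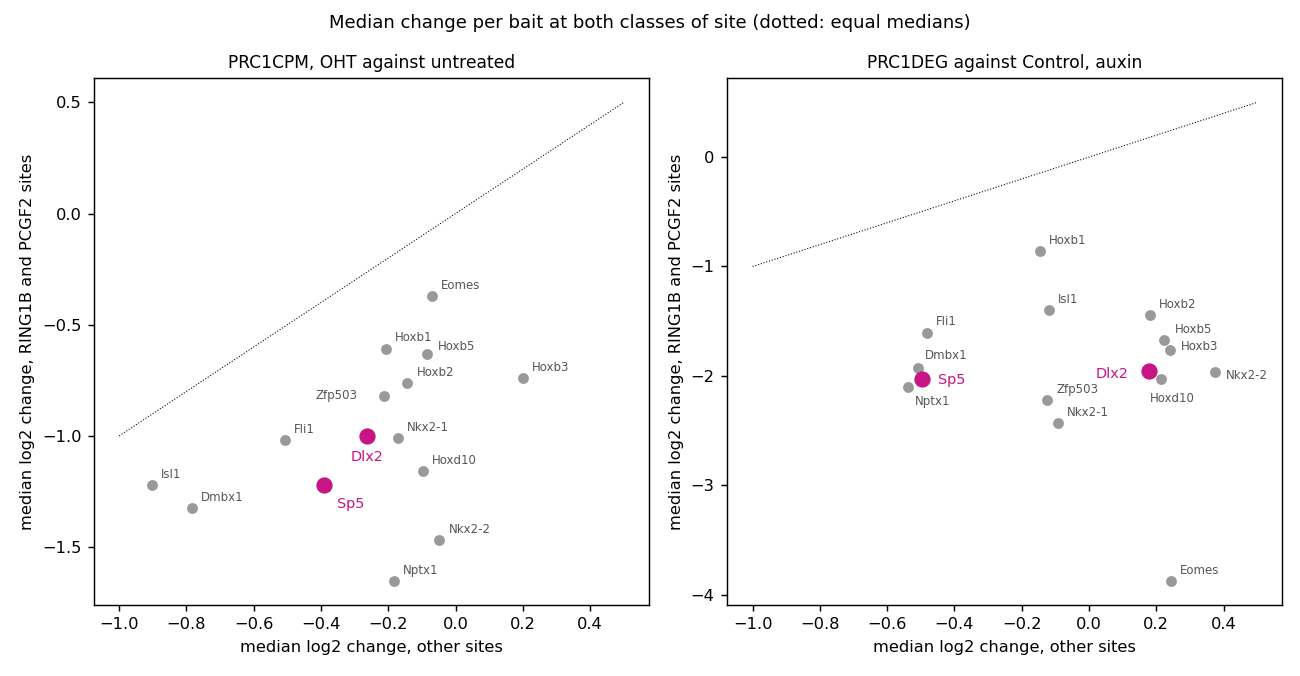
Median log2 change at PCGF2 sites (y axis) against that at other sites (x axis) for each of the 15 named baits with at least 3 contacts in both classes, after OHT (left) and in PRC1DEG (right). Dlx2 and Sp5 are the large coloured points, every bait lies below the dotted line of equal medians, and in PRC1DEG Sp5 sits to the left of Dlx2.

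Interaction scores placed these contacts in the table, so their levels are a description and add no support to the changes in reads. The median of the mean score per fragment over the 15 Dlx2 contacts at PCGF2 sites was 2.34 in untreated cells and 0.27 after OHT, and 3.71 in Control and 0 in PRC1DEG. For the 3 Sp5 contacts it was 2.94, 0.73, 3.36 and 0.0055. A summit score of at least 5 was reached in untreated cells by 8 of 15 Dlx2 and 2 of 3 Sp5 contacts, beside 63.3% of all contacts of named baits and 66.2% of those at PCGF2 sites. After OHT none of the 18 reached it, beside 30% and 11.5%. In Control 5 and 1 did, beside 23.4% and 53.1%, and in PRC1DEG none did, beside 7.97% and 2.31%.

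The summit is 1 fragment per contact, and a call by its score can miss a higher score on another fragment. Overlap of calls between groups was not counted for the other named baits, so no pattern here is shown to be particular to Dlx2. By summit score, 8 of the 15 Dlx2 contacts at PCGF2 sites were called in untreated cells alone, 5 in Control alone and 2 in no group. These 2 were Gad1 and Evx2, with summit scores of 1.11 and 0 in Control. Their mean scores in Control were 8.58 over 2 fragments and 3.71 over 5, so other fragments scored higher there. The contact over Hoxd13 to Hoxd11 scored 10.5 at its summit in untreated cells and 0 in Control, whereas its mean scores over 34 fragments were 2.34 and 1.61. At other sites 16 of 19 Dlx2 contacts reached 5 before OHT and 3 after it, and 2 did so in each auxin group. For Sp5 these numbers were 10, 3, 3 and 0 of 13, with Control before PRC1DEG. Of the 284 contacts of all named baits at other sites, 176 reached 5 before OHT and 109 after it. In Control 28 did, and in PRC1DEG 30.

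**Figure D5:**
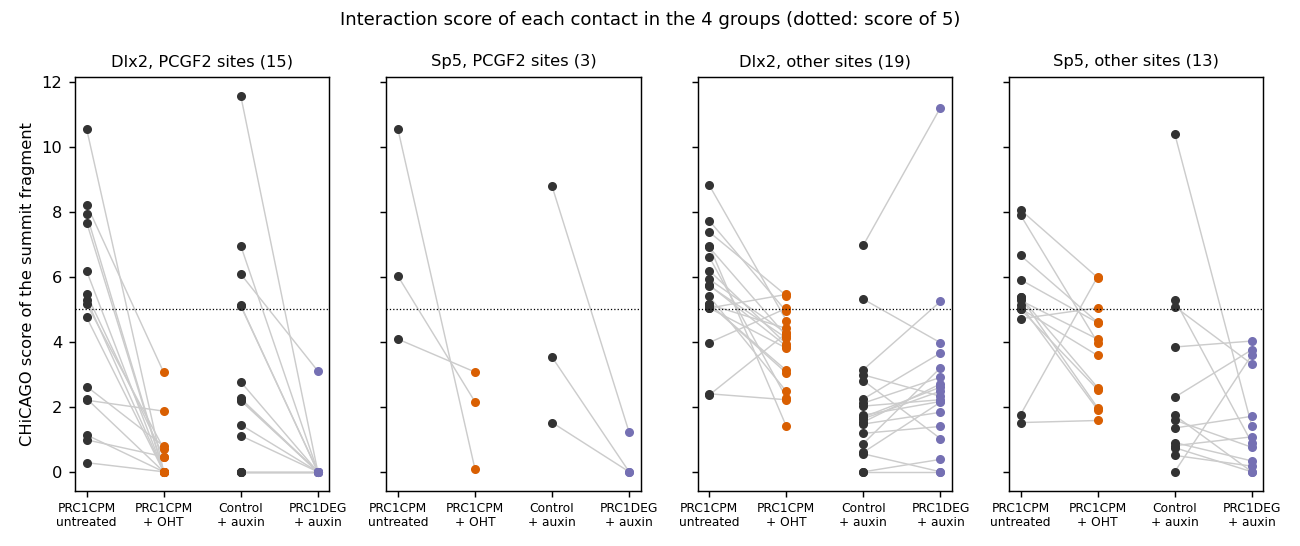
CHiCAGO score of the summit fragment (y axis) of each contact in the 4 groups (x axis), for Dlx2 and Sp5 contacts at PCGF2 sites and at other sites, with lines joining the same contact within a system. The dotted line marks a score of 5, which no contact at a PCGF2 site reached after OHT or in PRC1DEG.

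Of the 15 protein-coding genes listed between and beside the baits, 8 had a TSS within 10 kb of a Dlx2 contact. For Sp5 contacts this number was 3. In each case 2 of these, Gad1 and Dlx1, were at PCGF2 sites. Of all 1836 protein-coding genes of chromosome 2, 21 or 1.14% lay so near a Dlx2 contact and 5 or 0.27% an Sp5 contact. The list was chosen by position near the baits, where all contacts at other sites lay, so a higher share was built in. Mettl8, Dcaf17, Hat1 and Metap1d had a TSS inside a Dlx2 contact at an other site, which for Mettl8 and Dcaf17 was 1 shared fragment with 12, 8, 3 and 5 reads. Gorasp2, Tlk1, Cybrd1 and Slc25a12, which lie between both promoters, had no contact of either bait over the gene or within 10 kb of its TSS.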

How the data were processed

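CaptureC was done in 12 samples, 3 replicates in each of 4 groups. The authors aligned reads with HiCUP and Bowtie2 to mm10, kept fragments of 100 to 800 bp, merged the replicates and ran CHiCAGO. The deposited signal values are weighted reads normalized to the reads on captured promoters and to the number of promoters, the deposited score values are CHiCAGO scores, and the deposited counts are DpnII fragments per contact. Contacts less than 10 fragments apart had been merged. The bait file gives positions and widths in bp.

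Weighted reads were recovered as whole multiples of the smallest step (tolerance 0.1, 100% whole). Normalized values were divided by the number of fragments, and log2 ratios and Wilson intervals were computed in Python 3.11.15 with pandas 2.3.3. Ratios of summed reads and the Wilson intervals were tested on simulated reads that held counting error alone, without selection by score. The log2 change with its pseudocount was not tested in this way. Alternatives were a larger pseudocount, a floor of 3 reads, a minimum of 10 reads, summed or summit values, centring on contacts without PCGF2, and other score thresholds. Genes came from the GENCODE M21 basic annotation and sequences from RefSeq through samtools 1.23.1. All 24 bait fragments matched GRCm38. Named were all contacts at PCGF2 sites, those near the other bait or its contacts, contacts of other baits near Dlx2 or Sp5, any past the fold in both systems, and the 3 others of each bait with the most reads. The members and lists were chosen with earlier results of these data known.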

Additional observations from a re-analysis of the deposited data

Results flagged for a closer look

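The Dlx2 contact over Hat1 and Metap1d had a log2 change of -0.16 after OHT and of 0.22 in PRC1DEG, and it was singled out because the 2 systems moved in opposite directions with intervals that each left out 0. The 19 Dlx2 contacts at other sites, summed, did the same, with log2 ratios of -0.18 (-0.27 to -0.09) after OHT and 0.16 (0.07 to 0.24) in PRC1DEG. The 42-fragment region gave 1220 of the 2338 untreated reads in this sum. The difference between the systems was not tested, and each is 1 pooled library per group.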

How the results depend on the processing

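No paired analysis was possible because the table pools the 3 replicates of each group in 1 column, and for the same reason no replicate could be left out. All 18 contacts at PCGF2 sites stayed below 0 under each alternative, except the Hoxd1 contact after OHT, which was 0.12 with values below 3 reads set to 3. A larger pseudocount and summing over fragments cannot alter the sign of a change. For contacts of 1 fragment, the summit value was the same by construction. Only the floor of 3 reads, centring after OHT and the summit of wider contacts could have reversed a direction. The fold threshold was the fragile element. A pseudocount 10 times larger moved the medians at PCGF2 sites to -0.48 for Dlx2 and -0.90 for Sp5 after OHT, and to -0.98 and -1.12 in PRC1DEG, and left 0, 1 and 7 contacts past a fold of 2 for Dlx2 after OHT, Sp5 after OHT and Dlx2 in PRC1DEG, and 0 at other sites of either bait after OHT. With values below 3 reads set to 3, the Dlx2 median in PRC1DEG was -1.06 with 9 past the fold, and with counts summed over fragments it was -2.32. Centring on the 685 contacts without PCGF2 (median -0.19 after OHT and 0.07 in PRC1DEG) left 5 Dlx2 contacts past the fold after OHT, and moved the Sp5 median to -1.03 and those at other sites to -0.072 for Dlx2 and -0.20 for Sp5, with 0 past the fold. The summit fragment alone put 2 Dlx2 contacts at other sites past it after OHT. The Sp5 median at other sites in PRC1DEG was -0.83 with at least 10 Control reads and -0.67 as a ratio of sums. Among contacts with a summed score below 5 in both groups of a system, a choice made after seeing the data, the medians after OHT were -0.75 at PCGF2 sites of Dlx2 and 0.021 and 0.12 at other sites of Dlx2 and Sp5, and the Dlx2 median at PCGF2 sites in PRC1DEG was -1.37. The ratios of summed reads between Dlx2 and Sp5 moved by less than their intervals under both alternatives run for them.

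Median scores at PCGF2 sites, taken from the summit, were 5.16, 0 and 2.22 for Dlx2 in untreated, OHT and Control cells, and 6.02, 2.15 and 0 for Sp5 in untreated, OHT and PRC1DEG. As means over contacts, those in PRC1DEG were 0.21 and 0.28. At a score of at least 3, the Dlx2 calls at PCGF2 sites became 1 after OHT and 1 in PRC1DEG, those of Sp5 1 after OHT and 2 in Control. At other sites they became 15 after OHT and 5 in PRC1DEG for Dlx2, and 8 and 4 for Sp5. At a score of at least 10, PCGF2 sites kept 1 Dlx2 contact in untreated cells and 1 in Control, and 1 and 0 for Sp5. At other sites 0 were left for Dlx2 in untreated, OHT and Control cells and 1 in PRC1DEG, and for Sp5 0 in untreated and OHT cells and 1 in Control. With mean scores of at least 5, untreated cells had 3 Dlx2 and 0 Sp5 contacts at PCGF2 sites, and other sites had 0 in Control and 1 in PRC1DEG for Dlx2, and 1 after OHT and 1 in Control for Sp5.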
